A study of Mus musculus with 8 samples.

Results

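Replication-dependent histone genes were compared between hematopoietic stem cells of mice homozygous for the elektra mutation of Slfn2 and those of wildtype littermates. The members were the features annotated with 1 gene symbol that starts with Hist1h, Hist2h, Hist3h or Hist4h, the older names of the histone gene clusters, with the feature of highest mean signal kept for each symbol. There were 47 such genes among 30802 genes with a single symbol. RefSeq lists 2 of them, Hist1h2al and Hist3h2bb-ps, as transcribed pseudogenes, and both lay below the level filter used for testing. Of these 47, 23 had a mean log2 signal at or above the median over all features, 6.17, and so were among the 15710 genes tested. The gene closest below that level was Hist1h2aa, at a mean of 6.16, and the gene closest above it was Hist2h2ac, at 6.62. By histone, 2 of 5 H1 genes, 7 of 15 H2A genes, 9 of 15 H2B genes, 3 of 8 H3 genes and 2 of 4 H4 genes were tested.

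Both groups were untreated C57Bl/6 mice, Slfn2 elektra/elektra or Slfn2 wildtype/wildtype, with 4 arrays each. Elektra is a germline mutation that every cell of the mouse carries, so no array isolates an effect within stem cells. The cells were sorted from bone marrow enriched for c-Kit as lineage-negative, Sca-1+, c-Kit+ cells with high CD9, without CD48 and with CD150. Per the labels' protocols each sample pooled bones of 2 mice and about 200 pg of RNA was amplified with 12 cycles of PCR, while the series text gives 4 mice per genotype, and the sources do not settle how many mice stand behind an array. The sources used here give no age for the mice. All values are log2 signals of Affymetrix arrays, on which a difference of 1 is a doubling of the signal, and the number of arrays limits their precision.

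Replication-dependent histones are the core histones H2A, H2B, H3 and H4, around which DNA is wrapped in nucleosomes, and the linker histone H1, which binds DNA between them. Their genes lie in clusters, are transcribed mainly while DNA is copied in S phase, and give messenger RNAs that end in a conserved stem-loop in place of a poly(A) tail. Stem cells of this kind are mostly quiescent, and these transcripts are known as markers of cells in S phase. The members lay in 4 clusters, Hist1 on chromosome 13, Hist2 on chromosome 3, Hist3 on chromosome 11 and Hist4 on chromosome 6. Many core histone genes of 1 class are nearly identical in their coding sequence, so a feature may also take up transcripts of its relatives. The signal of a single such member is uncertain to that extent.

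All 47 genes were found in the RefSeq gene table of mouse assembly GRCm38.p6, and 42 had a promoter sequence there. The 200 bases upstream of the annotated start are shown for the tested gene of smallest p in each class that had one, to let the promoters of the 5 classes be compared. Capitals mark matches to TATAAA (the TATA box), CCAAT (the CCAAT box), ATTTGCAT (the octamer) and AAACACA (the H1 box) on either strand, so TTTATA and ATTGG are matches on the other strand. They are Hist1h1d (chr13:23554832-23555031, + strand), Hist1h2an (chr13:21787249-21787448, - strand), Hist2h2bb (chr3:96269500-96269699, + strand), Hist1h3h (chr13:21717428-21717627, + strand) and Hist1h4k (chr13:21750554-21750753, - strand), each written from 5′ to 3′.
Hist1h1d: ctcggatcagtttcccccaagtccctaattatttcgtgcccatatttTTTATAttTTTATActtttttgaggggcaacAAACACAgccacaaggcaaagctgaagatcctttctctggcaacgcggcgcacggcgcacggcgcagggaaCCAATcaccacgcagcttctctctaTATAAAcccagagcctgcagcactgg
Hist1h2an: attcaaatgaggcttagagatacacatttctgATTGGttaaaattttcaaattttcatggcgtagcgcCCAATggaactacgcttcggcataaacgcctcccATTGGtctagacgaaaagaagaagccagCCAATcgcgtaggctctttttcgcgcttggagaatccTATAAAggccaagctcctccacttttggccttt
Hist2h2bb: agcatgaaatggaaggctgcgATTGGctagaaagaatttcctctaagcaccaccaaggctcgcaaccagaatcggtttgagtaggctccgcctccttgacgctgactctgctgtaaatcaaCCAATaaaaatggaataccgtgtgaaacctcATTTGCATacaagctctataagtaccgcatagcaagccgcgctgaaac
Hist1h3h: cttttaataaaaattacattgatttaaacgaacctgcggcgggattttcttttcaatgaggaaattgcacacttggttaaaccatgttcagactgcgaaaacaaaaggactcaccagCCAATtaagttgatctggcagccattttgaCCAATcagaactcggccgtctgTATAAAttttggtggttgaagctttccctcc
Hist1h4k: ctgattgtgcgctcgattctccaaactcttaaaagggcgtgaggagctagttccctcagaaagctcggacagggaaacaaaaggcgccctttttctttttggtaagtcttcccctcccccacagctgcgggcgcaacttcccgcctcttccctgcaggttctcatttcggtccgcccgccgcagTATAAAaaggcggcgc

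The TATA box was found upstream of 19 of the 42 genes, or 45.2%, and in 10.6% of all 27025 promoters of the same length. A CCAAT box lay upstream of 37 of the 42, or 88.1%, against 30.0% of all promoters. It was present in all H1, H2A and H2B promoters and in 6 of 7 H3 promoters, and in 0 of 4 H4 promoters, as the H4 sequence above shows. The octamer, which binds the factors of the Oct family and is known as an element of H2B promoters, occurred in 6 of 14 H2A and 6 of 12 H2B promoters and in 0 of the H1, H3 and H4 promoters, against 1.39% of all promoters. Many H2A and H2B genes lie back to back and share their upstream bases, so these counts are not independent. The H1 box was found in 4 of 5 H1, 1 of 14 H2A and 2 of 12 H2B promoters. It was found in 0 of the H3 and H4 promoters, and in 4.74% of all promoters. A match is a stretch of letters and says nothing of the binding of a factor in these cells.

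No replication-dependent histone gene passed the test between elektra and wildtype stem cells. Of the 23 tested genes, 0 passed an adjusted p of 0.05 by limma's moderated test, with Benjamini-Hochberg adjustment over all 15710 genes, beside 0.0382% of all genes. At an unadjusted p of 0.05 the count was also 0, beside 11% of all genes tested, and 0 had groups of arrays that did not overlap, beside 6.26% of all genes. Elektra had the higher mean for 12 and the lower for 11 of the 23, with a median log2 difference of 0.0020, where all genes had a median of 0.0123 and 53.1% had the higher mean in elektra. With the arrays centred on their medians the split was 15 to 8, and with quantile normalization repeated it was 11 to 12. The share of all genes with the higher mean in elektra is not given for these settings. The 95% interval of the difference lay within 1.5-fold in either direction for 17 of the 23, or 73.9%, and for 84.6% of all genes, so that for the other 6 a difference of 1.5-fold stayed inside the interval. The count of histone genes at an unadjusted p of 0.05 rose above 0 when single arrays were left out, to 3 without wildtype replicate 1, 2 without wildtype replicate 2 and 1 each when the array left out was number 2 or 3 of elektra or number 3 or 4 of wildtype, while the count at the adjusted p was 0 in each of these fits. Whether the members differ from other genes in these shares was not tested.

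**Figure D1:**
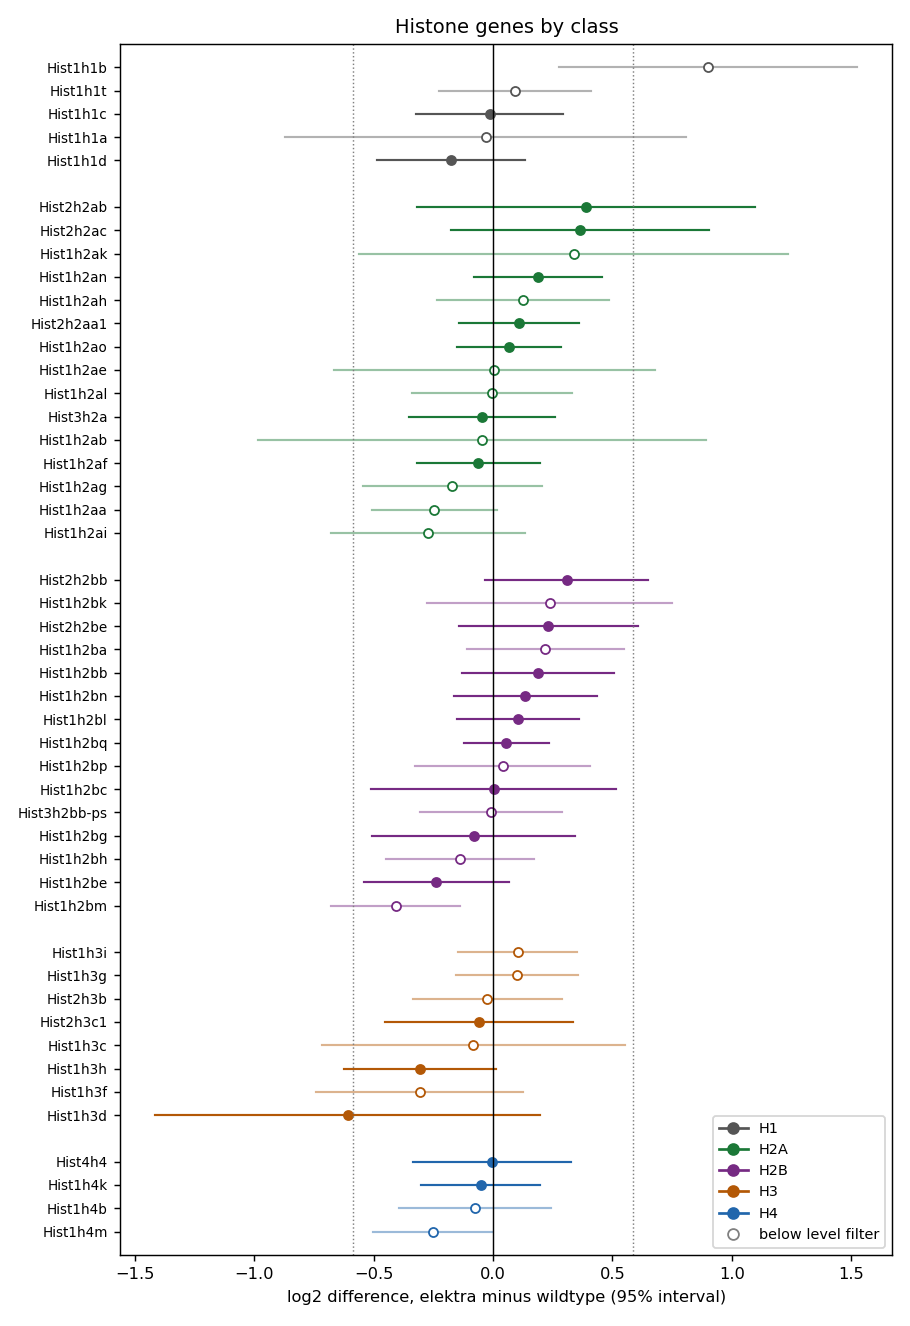
Log2 difference, elektra minus wildtype, of all 47 histone genes by class, with the 95% interval from limma (4 arrays per genotype). Filled points are the 23 tested genes, open points the 24 below the level filter with intervals from the fit without it, and the dotted lines mark 1.5-fold. The intervals of all 23 filled points include 0, and of the open points those of Hist1h1b, Hist1h2bm and Hist1h4m do not.

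Of the linker histone genes, Hist1h1c and Hist1h1d, now named H1f2 and H1f3, were above the level filter. Hist1h1c read 8.89, 9.02, 9.30 and 8.67 on the elektra arrays and 8.80, 8.92, 9.04 and 9.16 on the wildtype arrays. The groups overlapped, with an elektra array both highest and lowest. Its log2 difference was -0.01 (SE 0.14, 95% interval -0.32 to 0.29, limma adjusted p = 0.981) and turned to 0.03 with the arrays centred on their medians. Hist1h1d read 7.00, 7.51, 7.54 and 7.19 in elektra and 7.47, 7.26, 7.64 and 7.58 in wildtype, so elektra replicates 1 and 4 were the lowest of the 8 arrays. The difference was -0.18 (SE 0.14, 95% interval -0.49 to 0.13, limma adjusted p = 0.655).

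Among the H2A genes, which encode the partner of H2B in the outer dimers of the nucleosome, 5 of 7 tested had a higher mean in elektra and 0 passed. The count was 6 of 7 with arrays centred, since Hist3h2a changed sign, and the median difference was 0.11 as deposited. Hist2h2ab (H2ac21) read 7.78, 6.17, 6.61 and 7.18 in elektra and 6.69, 5.93, 6.63 and 6.93 in wildtype. Elektra replicates 1 and 4 were the highest, and wildtype replicate 2 the lowest. Its log2 difference of 0.39 was the largest among the tested members with a higher mean in elektra, with an interval that reached from -0.32 to 1.10 (SE 0.32, limma adjusted p = 0.666).

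Hist2h2ac (H2ac20) read 6.81, 6.58, 6.73 and 7.09 in elektra, and 6.68, 6.10, 5.85 and 7.12 in wildtype. The wildtype arrays held both the highest and the lowest value, and the difference was 0.37 (SE 0.24, 95% interval -0.17 to 0.91, limma adjusted p = 0.595). Hist1h2an (H2ac22), whose promoter is shown above with its TATA box, read 10.64, 10.54, 10.81 and 10.86 in elektra, with 10.68, 10.24, 10.63 and 10.55 in wildtype. Wildtype replicate 2 was the lowest, and the difference was 0.19 (SE 0.12, 95% interval -0.08 to 0.45, limma adjusted p = 0.582). Hist2h2aa1 (H2ac18) read 12.93, 12.86, 13.03 and 12.84 in elektra and 12.69, 12.78, 12.66 and 13.10 in wildtype. Of its wildtype arrays 3 lay below all elektra arrays and the other, replicate 4, above them, for a difference of 0.11 (SE 0.11, 95% interval -0.14 to 0.36, limma adjusted p = 0.740). The other 3 tested H2A genes, Hist1h2ao, Hist3h2a and Hist1h2af, differed by 0.07, -0.05 and -0.06, with intervals within 1.5-fold.

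H2B genes had the higher mean in elektra in 7 of 9 cases, the median difference was 0.10, and 0 passed. With quantile normalization repeated the count was 6 of 9, since Hist1h2bc changed sign. Hist2h2bb (H2bc18), the H2B gene of smallest p, read 7.54, 7.51, 7.30 and 7.47 in elektra and 7.38, 7.42, 7.09 and 6.70 in wildtype. Elektra replicate 3 lay below wildtype replicates 1 and 2, and the other elektra arrays above all wildtype arrays. Its log2 difference was 0.31 (SE 0.15, 95% interval -0.03 to 0.65), at an unadjusted p of 0.072 and a limma adjusted p of 0.488. In the sequence above its octamer starts at position -48 from the gene start. Hist2h2be (H2bc21) read 6.98, 7.43, 6.67 and 6.62 in elektra and 6.58, 6.71, 6.59 and 6.88 in wildtype, so the largest values were those of elektra replicates 1 and 2, and the difference was 0.23 (SE 0.17, 95% interval -0.14 to 0.61, limma adjusted p = 0.626).

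The other 7 tested H2B genes lie in the Hist1 cluster. Hist1h2bb (H2bc3) read 9.98, 9.77, 9.99 and 10.12 in elektra and 10.01, 9.42, 9.68 and 10.01 in wildtype. Wildtype replicates 2 and 3 were the lowest, and the difference was 0.19 (SE 0.14, limma adjusted p = 0.642). Hist1h2bn (H2bc15) read 10.84, 10.59, 10.84 and 10.79 in elektra with 10.90, 10.32, 10.50 and 10.81 in wildtype, and Hist1h2bl (H2bc13) read 11.20, 11.01, 11.34 and 11.31 with 11.28, 10.90, 11.05 and 11.22. Both were lowest on wildtype replicate 2, and they differed by 0.14 (SE 0.14, limma adjusted p = 0.729) and 0.10 (SE 0.12, limma adjusted p = 0.761). Hist1h2be (H2bc6) went the other way. It read 7.87, 7.54, 7.70 and 7.76 in elektra and 7.61, 8.07, 7.89 and 8.24 in wildtype, a difference of -0.24 (SE 0.14, 95% interval -0.54 to 0.07, limma adjusted p = 0.545), with wildtype replicates 2, 3 and 4 above all elektra arrays. Hist1h2bc (H2bc4) had the same mean in both groups to 2 decimals in the difference, 0.00 (SE 0.23, limma adjusted p = 0.998), but its wildtype arrays spread from 9.05 to 10.33, so the 95% interval was -0.51 to 0.51. The remaining tested H2B genes, Hist1h2bq and Hist1h2bg, differed by 0.06 and -0.08.

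H3 genes, which encode a partner of H4 in the central tetramer of the nucleosome, had a lower mean in elektra for 3 of 3 tested, as they also did with arrays centred and with quantile normalization repeated. Again 0 passed, and the median difference was -0.31. Hist1h3h (H3c10), the histone gene of smallest p, read 7.01, 6.67, 7.11 and 6.77 in elektra and 7.48, 7.01, 6.98 and 7.32 in wildtype. Wildtype replicates 1 and 4 lay above all elektra arrays and elektra replicates 2 and 4 below all wildtype arrays, while the remaining 4 arrays overlapped. Its log2 difference was -0.31 (SE 0.14, 95% interval -0.62 to 0.01), at an unadjusted p of 0.057 and a limma adjusted p of 0.465. Hist1h3d (H3c4), which had the largest SE of the tested histone genes, read 7.56, 8.58, 8.22 and 6.89 in elektra and 7.62, 8.84, 8.83 and 8.38 in wildtype, with elektra replicate 4 lowest and elektra replicate 1 and wildtype replicate 1 also low. The difference of -0.61 had an interval from -1.41 to 0.20 (SE 0.36, limma adjusted p = 0.555), and it was -0.13 with the interquartile range of each array as a covariate. Hist2h3c1 (H3c14) read 10.44, 10.73, 11.11 and 10.41 in elektra, and 10.41, 10.92, 10.61 and 10.98 in wildtype, for a difference of -0.06 (SE 0.18, limma adjusted p = 0.927). It turned to 0.22 with the interquartile range as a covariate.

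H4 was represented by Hist1h4k (H4c12) and Hist4h4 (H4f16). Hist1h4k, whose promoter above holds a TATA box and no CCAAT box, read 11.66, 11.68, 11.76 and 11.90 in elektra and 11.89, 11.58, 11.74 and 12.00 in wildtype. The highest and the lowest array were both wildtype, and the difference was -0.05 (SE 0.11, 95% interval -0.30 to 0.20, limma adjusted p = 0.888). Hist4h4 read 7.57, 7.53, 7.93 and 8.13 in elektra and 7.65, 7.82, 7.68 and 8.02 in wildtype, with the elektra arrays at both ends. It differed by -0.00 (SE 0.15, 95% interval -0.33 to 0.32, limma adjusted p = 0.993), and by 0.04 with arrays centred.

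**Figure D2:**
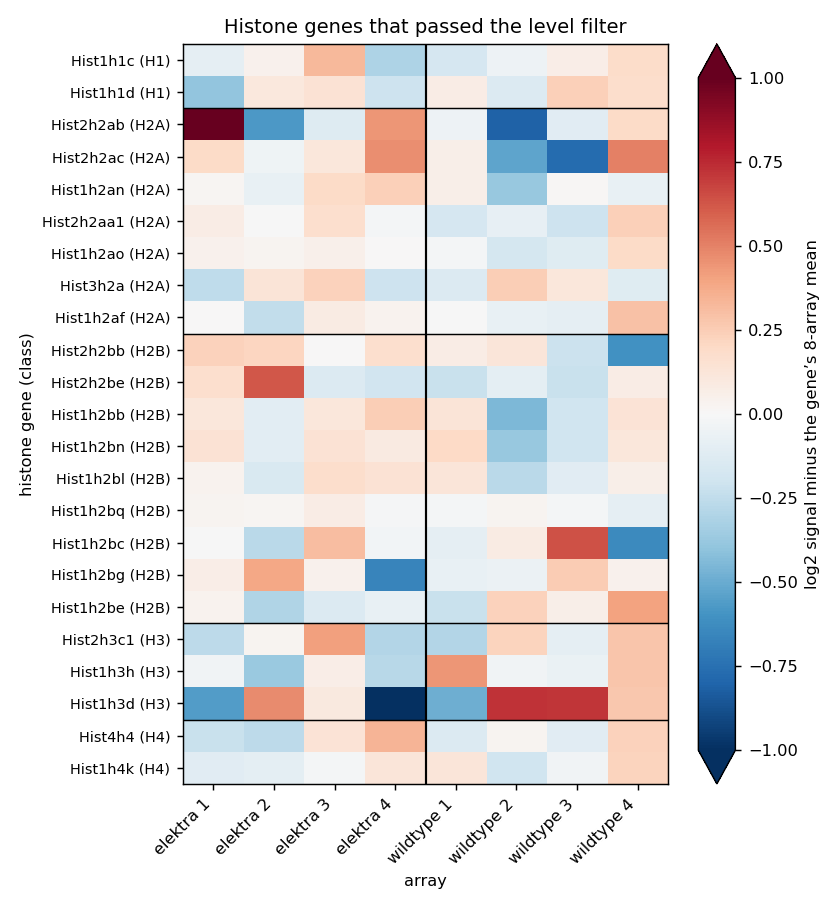
Log2 signal of the 23 tested histone genes on each of the 8 arrays, minus the mean of that gene over the 8 arrays. Rows are genes grouped by class, columns are arrays, and values past 1 in either direction have the end colours. Colours change from array to array within a genotype, with Hist1h3d on elektra replicate 4 and Hist2h2ab on elektra replicate 1 farthest from the mean of the gene.

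Class by class, the mean log2 signal of the members was compared array by array, as a description without a test. Over all members, H1 differed by 0.15 (SE 0.15), H2A by 0.05 (SE 0.10), H2B by 0.04 (SE 0.04), H3 by -0.15 (SE 0.06) and H4 by -0.10 (SE 0.08), elektra minus wildtype, and the mean over all 47 by 0.01 (SE 0.06). The H3 class mean was 5.17 to 5.40 on the elektra arrays and 5.33 to 5.45 on the wildtype arrays, so the groups overlapped on elektra replicate 3. Over the tested members alone, H1 differed by -0.10 (SE 0.14), H2A by 0.14 (SE 0.11), H2B by 0.08 (SE 0.03), H3 by -0.32 (SE 0.20) and H4 by -0.03 (SE 0.12). H1 thus had opposite signs in the means over all and over tested members, the first of which holds Hist1h1b. The H2B mean of tested members was 8.94 to 9.07 in elektra and 8.89 to 8.98 in wildtype, and the H2A mean was 9.14 to 9.41 against 8.996 to 9.43, overlapping in both.

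**Figure D3:**
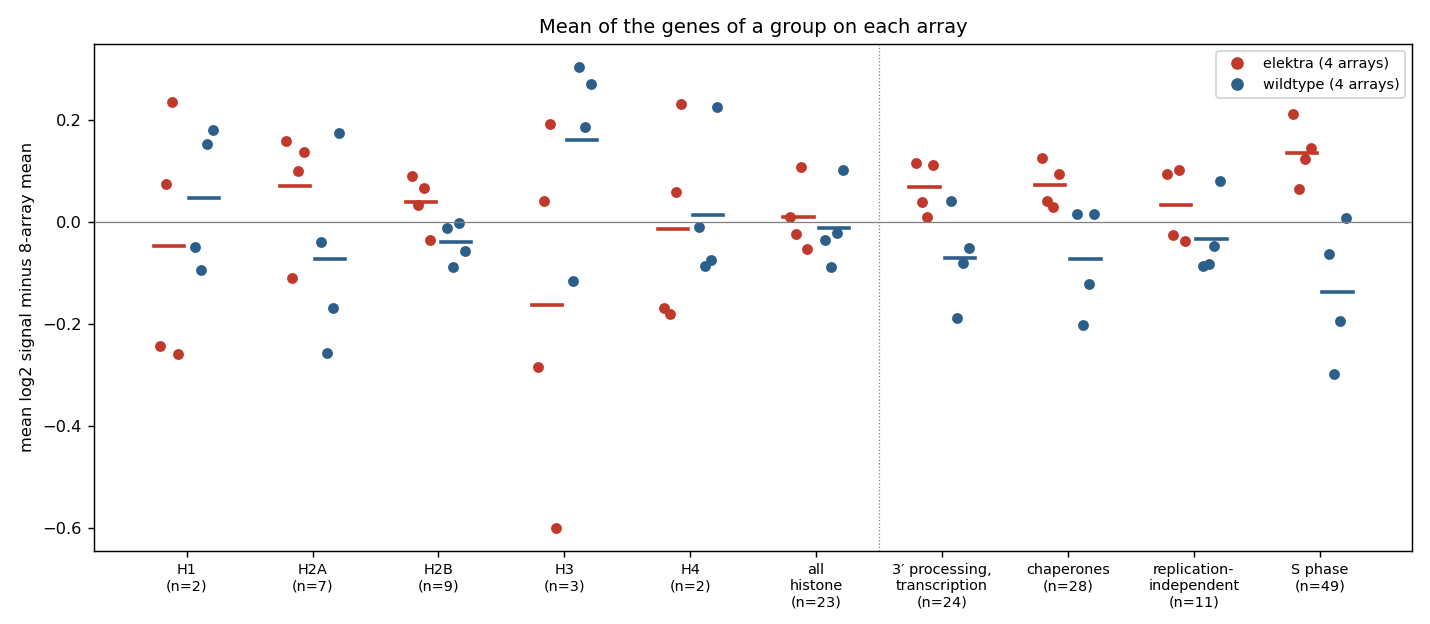
Mean log2 signal of the tested genes of a group on each array, minus its mean over the 8 arrays, for the histone classes (left of the dotted line) and for the related gene lists (right). Points are arrays, 4 elektra and 4 wildtype, and bars are genotype means. The points of the 2 genotypes overlap for each histone class, and they do not overlap for the chaperones and for S phase.

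By cluster, all 5 tested H2A and H2B genes of Hist2 had the higher mean in elektra, at differences from 0.11 to 0.39 and a median of 0.31. These were Hist2h2aa1, Hist2h2ab, Hist2h2ac, Hist2h2bb and Hist2h2be. The 95% interval lay within 1.5-fold for 1 of the 5. The H3 genes of Hist2 went the other way, Hist2h3c1 by -0.06 and Hist2h3b, below the level filter, by -0.02. In Hist1, 7 tested genes of all classes had a higher and 8 a lower mean in elektra. For the 11 tested H2A and H2B genes of the other clusters, 7 had a higher and 4 a lower mean, the median was 0.06, and the interval lay within 1.5-fold for 11 of 11. This grouping was chosen after the values were seen, and the difference between the groupings was not tested. Of the H2A genes, 9 had an H2B gene as neighbour within the members, with 163 to 280 bases between them, which share a promoter region. In 2 of these pairs both genes were tested. Hist2h2ac and Hist2h2be differed by 0.37 and 0.23, and Hist1h2ao and Hist1h2bq by 0.07 and 0.06.

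The 24 members below the level filter had means of 6.16 or lower, and 10 of them had a higher and 14 a lower mean in elektra. Among them were the testis histone genes Hist1h1t, Hist1h2aa and Hist1h2ba, which were all below the filter. In the fit without a filter, over 30802 genes, 0 of the 47 members passed (smallest limma adjusted p = 0.455), beside 0.00974% of all genes. Of all 47, 22 had the higher mean in elektra, beside 43.2% of all genes. At an unadjusted p of 0.05 the count was 3, beside 8.72% of all genes, with 1 higher (4.02%) and 2 lower (4.7%), and the groups of 1 did not overlap, beside 5.09%. The 95% interval lay within 1.5-fold for 31 of the 47 and for 84.6% of all genes.

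These 3 genes are given because of their p in that fit. Hist1h2bm (H2bc14), an H2B gene, read 4.02, 4.35, 4.12 and 4.36 in elektra and 4.85, 4.66, 4.47 and 4.49 in wildtype, so all elektra arrays lay below all wildtype arrays. The difference was -0.41 (SE 0.12, unadjusted p = 0.0070, limma adjusted p = 0.455). Hist1h1b (H1f5), a linker histone gene, read 3.92, 2.83, 3.27 and 4.39 in elektra and 2.51, 2.75, 2.60 and 2.94 in wildtype. Elektra replicates 1, 3 and 4 were above all wildtype arrays, and the difference was 0.90 (SE 0.28, unadjusted p = 0.0091, limma adjusted p = 0.468). Hist1h4m (H4c17) read 5.41, 5.41, 5.56 and 5.62 in elektra, and 5.60, 5.59, 5.86 and 5.95 in wildtype, a difference of -0.25 (SE 0.11, unadjusted p = 0.048, limma adjusted p = 0.568). In the authors' deposited table, 2 of the 47 members had a p under 0.05, Hist1h2bm at 0.0158 and Hist1h1b at 0.0452. At these signal levels the arrays cannot tell low expression from background.

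A further 18 features named several histone genes at once, 2 to 13 of them each, and were therefore no members. They covered 41 symbols, of which 19 were not members, and 10 of the features were for H4, 4 for H3, 3 for H2B and 1 for H2A. Of the 18 features, 5 had a mean signal at or above the level filter. Of these, the H3 feature differed by 0.19, the H2B feature by -0.45 and the H4 features by -0.31, -0.09 and 0.01. The signs of this H3 and this H2B feature were opposite to those of most tested genes of their class. The differences of the 18 ran from -1.06 to 0.26 with a median of -0.02. Among the 18, 0 had groups that did not overlap, beside 4.99% of all 33793 features. In the fit over every feature 1 had an unadjusted p under 0.05 (0.016, limma adjusted p = 0.500), beside 8.55% of all features. This feature named 13 H4 genes and had a mean of 5.17, below the level filter. It read 4.13, 5.40, 5.32 and 3.73 in elektra and 5.83, 5.39, 5.35 and 6.24 in wildtype. Elektra replicates 1 and 4 lay below the other 6 arrays, and the remaining elektra arrays lay among those of wildtype or just below them. The other 9 H4 features, which named the same 13 genes, differed by -0.39 to 0.26.

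The array with the lowest or highest value was counted for each tested histone gene. Wildtype replicate 2 was the lowest of the 8 arrays for 7 of the 23, or 30.4%, and for 15.0% of all genes tested. Wildtype replicate 4 was the highest for 6 of the 23, or 26.1%, and for 12.8% of all genes. Elektra replicate 3 was the lowest for 0 of the 23 and for 10.8% of all genes. Whether these shares differ from those of all genes was not tested. The medians of the arrays were 6.11 to 6.26, and their interquartile range was widest on elektra replicate 1 (2.67) and narrowest on wildtype replicate 2 (2.41). The genes Hist2h2aa1, Hist1h2ao and Hist1h2bq were each listed with 2 features that held the same value on every array, so those features are not separate measurements. Hist2h3c1 and Hist1h4b were also listed with 2 features each, whose values differed, and only the feature of highest mean is given here.

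The genes that act on histone messages and on histones were then examined, to set the histone genes beside the rest of their pathway. Histone messages are made at dedicated nuclear bodies, and are cut behind the stem-loop by an endonuclease of the polyadenylation machinery. Of 24 tested genes of histone transcription and 3′ end processing, 18 had a higher mean in elektra. An unadjusted p under 0.05 was reached by 6 that were higher and 1 that was lower, beside 7.02% and 3.95% of all genes, with 0 past the adjusted threshold. The median log2 difference was 0.12. Cpsf3, which encodes the endonuclease, read 9.99, 10.33, 10.04 and 10.11 in elektra and 9.86, 9.87, 9.68 and 9.73 in wildtype, with no overlap and a difference of 0.33 (SE 0.10, limma adjusted p = 0.333). Its partner Cpsf2 read 8.12, 7.90, 7.82 and 8.16 in elektra against 7.53, 7.33, 7.62 and 7.77, again without overlap, a difference of 0.44 (SE 0.12, limma adjusted p = 0.301).

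Ncbp1, the large subunit of the nuclear cap-binding complex, differed by 0.31 (SE 0.10, limma adjusted p = 0.359) and Hinfp, a transcription factor of H4 genes, by 0.53 (SE 0.20, limma adjusted p = 0.379). Slbp, which encodes the protein that binds the stem-loop, differed by 0.04 (unadjusted p = 0.736), and Npat, which encodes the coactivator of histone transcription, by -0.08 (unadjusted p = 0.563). The count of 6 higher fell to 3 without elektra replicate 4 or without wildtype replicate 2, and to 2 with the interquartile range as a covariate. Some of these genes, Cpsf2 and Cpsf3 included, also serve the processing of other messages.

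Histone chaperones carry histones to DNA and place them there. Of 28 tested chaperones and early modifiers, the mean was higher in elektra for 23, with a median of 0.14. An unadjusted p under 0.05 was reached by 9 that were higher, beside 7.02% of all genes, and by 1 that was lower, beside 3.95%, while 0 passed the adjusted threshold. Supt16, a subunit of the FACT complex, read 8.38, 7.95, 8.08 and 8.26 in elektra and 7.84, 7.76, 7.68 and 7.33 in wildtype. The groups did not overlap, and the difference was 0.52 (SE 0.14, limma adjusted p = 0.269). Nasp, a chaperone of H3 and H4, differed by 0.44 (SE 0.15, limma adjusted p = 0.359), Nap1l1, a chaperone of H2A and H2B, by 0.32 (SE 0.11, limma adjusted p = 0.359) and Tonsl, which recognises newly made H4 and takes part in repair of replication forks, by -0.28 (SE 0.10, limma adjusted p = 0.369). The count of 9 fell to 3 without elektra replicate 4 or wildtype replicate 2, to 4 without elektra replicate 1, to 5 without wildtype replicate 3, to 4 with quantile normalization repeated and to 2 with the interquartile range as a covariate.

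Histone genes that are expressed outside S phase, most of them for variants of the core histones, gave 2 of 11 higher at an unadjusted p of 0.05, beside 7.02% of all genes, and 0 past the adjusted threshold. Their means were higher in elektra for 6 and lower for 5, beside 53.1% of all genes higher, and their median was 0.05. H2afj read 8.14, 8.03, 8.25 and 8.05 in elektra and 7.93, 7.63, 7.67 and 7.92 in wildtype, without overlap, a difference of 0.33 (SE 0.11, limma adjusted p = 0.345). H2afy, which encodes a macroH2A, differed by 0.22 (SE 0.08, limma adjusted p = 0.392), or by 0.02 when all its features were averaged. H2afz and H2afv, which encode H2A.Z proteins, differed by 0.12 and 0.18 (limma adjusted p = 0.634 and 0.681). The count of 2 was 1 without elektra replicate 1, elektra replicate 4 or wildtype replicate 3. Some replication-dependent genes also give polyadenylated messages, as known from human cells. The 4 of that list that were tested were Hist1h1c, Hist1h2bc, Hist2h2be and Hist2h2aa1. Their median difference was 0.06, and 0 had an unadjusted p under 0.05, beside 11% of all genes.

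S phase genes, most of which serve DNA replication, were examined last. The list also holds cell cycle regulators and proliferation markers, such as Ccna2, E2f1 and Mki67. Of 49 tested, 45 had the higher mean in elektra and the median log2 difference was 0.29. An unadjusted p under 0.05 was reached by 24 that were higher, beside 7.02% of all genes. It was reached by 0 that were lower, beside 3.95%, and 0 passed the adjusted threshold. Gmnn, which encodes the licensing inhibitor geminin, read 8.97, 8.73, 8.81 and 8.53 in elektra and 8.15, 8.08, 8.24 and 8.44 in wildtype, with no overlap and a difference of 0.53 (SE 0.12, limma adjusted p = 0.211). Ung, a DNA repair glycosylase, differed by 0.44 (SE 0.11, limma adjusted p = 0.259), Dtl, a substrate receptor of a ubiquitin ligase that acts in S phase, by 0.41 (SE 0.12, limma adjusted p = 0.308) and E2f8, a repressor of the E2F family, by 0.53 (SE 0.16, limma adjusted p = 0.316). The mean of the list was 8.22 to 8.37 on the elektra arrays and 7.86 to 8.16 on the wildtype arrays, lowest on wildtype replicate 2. The count of 24 fell to 11 without that array and to 7 with the interquartile range as a covariate. Mcm2 belongs to both the S phase and the chaperone list. The S phase genes and the histone genes thus had medians of 0.29 and 0.0020 on the same arrays, and the difference between the lists was not tested. Replication-dependent histone messages mostly lack a poly(A) tail, and how the RNA was primed for amplification is not given here. Whether the arrays measured both lists alike was not tested.

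**Figure D4:**
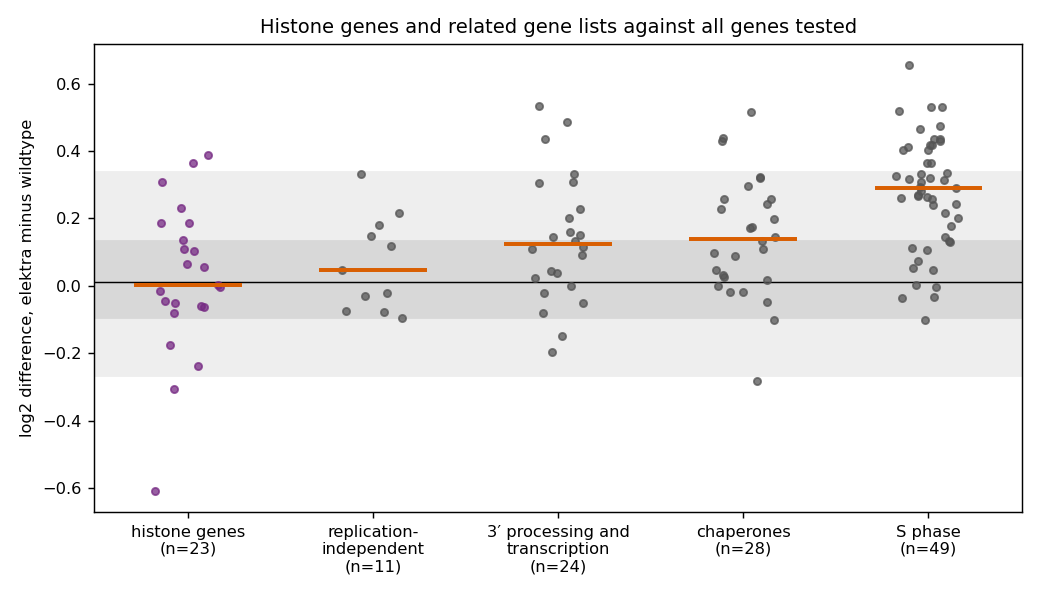
Log2 difference, elektra minus wildtype, of the tested genes of each list, with each point a gene and the orange bar the median of the list. The shaded bands hold the middle of all 15710 genes, from the 25th to the 75th percentile (-0.10 to 0.13) and from the 5th to the 95th (-0.27 to 0.34). The histone genes lie on both sides of the median of all genes, and the S phase genes lie mostly above it.

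The labelled cell type was checked against its markers, and 12 of 12 stem cell markers were above the level filter. Summed over the listed genes on the linear scale and given as log2, the markers of progenitors were 10.88 to 10.96 in elektra and 10.39 to 10.79 in wildtype, without overlap. Their members went both ways. Plac8, which passed the adjusted threshold (log2 difference 1.30, limma adjusted p = 0.0114), Cd34 (0.39), Flt3 (0.20) and Cd48 (0.14) had the higher mean in elektra, and Ctsg (-0.47), Elane (-0.41) and Mpo (-0.18) the lower. The sum over megakaryocyte markers was 11.25 to 11.31 against 10.88 to 11.08, also without overlap, with differences of 0.61 for Pf4, 0.39 for Itga2b and 0.01 to 0.11 for the other 4. For T and NK cells the sum was 8.98 to 9.34 against 8.62 to 8.97. Nkg7 (0.57) was the only one of the 6 above the filter, and the others differed by -0.06 to 0.11. For mast cells and basophils the sum was 10.57 to 10.72 against 10.79 to 10.88. Gata2 (-0.25), which stem cells also express, was the only one of the 5 above the filter, and of the others Cpa3 differed by 0.52 and the rest by -0.06 to 0.04. Above the filter were 5 of 7 progenitor, 5 of 6 megakaryocyte, 1 of 6 T and NK cell, 1 of 5 mast cell and basophil and 1 of 8 B cell markers. Erythroid markers ran from 9.38 to 11.32 in elektra and from 9.43 to 9.78 in wildtype, with 4 of 7 above the filter. Granulocyte and monocyte markers ran from 9.74 to 11.03 and from 9.71 to 10.16, with 5 of 9. The highest elektra sums of both lists were those of elektra replicate 4. On that array Hba-a2 read 10.88, Ngp 8.78 and S100a8 8.24. The other elektra arrays read 7.85 to 8.90, 5.32 to 6.08 and 5.01 to 5.79. The wildtype arrays read 7.36 to 8.73, 5.65 to 7.10 and 5.27 to 6.89. Epor (7.53) and Lyz2 (7.98) were within the range of the other elektra arrays on elektra replicate 4. The part of these markers in the values of the histone, chaperone, processing and S phase genes was not tested. In bulk samples such as these, fewer cells of a type and less RNA per cell cannot be told apart. Slfn2 itself read 8.17, 7.90, 7.79 and 8.08 in elektra and 7.48, 7.22, 7.53 and 8.41 in wildtype (difference 0.33, SE 0.22, limma adjusted p = 0.598), and since the mutation changes the sequence of Slfn2, its level does not check the genotype.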

How the data were processed

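RNA of sorted stem cells was measured on 8 Affymetrix arrays, 4 per genotype. The authors produced log2 signals by RMA in Affymetrix Expression Console 1.4, per the submitters' processing notes. RMA normalizes between arrays, which can reduce a change shared by most genes, although the medians of the deposited arrays still ran from 6.11 to 6.26. The deposited workbook (33793 features, 32074 with 1 symbol, 128 with several, 1591 with none) also holds the authors' signed linear fold change, a score in which reductions are negative reciprocals and which was not used, and their p-values, taken as unadjusted. Values in the deposited series table (41345 features) were within 0.158 log2 of the workbook, and 8 of 8 columns matched their own array. The sources used here do not name the array design, annotation release or build. RefSeq tables of GRCm38.p6 gave chromosomes, current symbols and promoters.

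Features with 1 symbol were tested where their mean signal reached the median over features (6.17), with the feature of highest mean per symbol, in 15710 genes. Elektra was compared with wildtype by limma 3.58.1 (lmFit, eBayes) in R 4.3.3, two-sided, without covariates, with Benjamini-Hochberg adjustment over all genes tested and a threshold of 0.05. Class and list means are given with no p. Motifs were searched as exact letters on both strands. Named genes were, per class, up to 4 tested members of smallest p and the 2 of highest signal, up to 4 genes of smallest p per related list, and Slfn2. Other members, Slbp, Npat and Mcm2 were named after their values were seen. The members and lists were chosen with earlier results of these data known. The procedure was tested on simulated data. Alternatives were no filter, a stricter filter, quantile normalization, arrays centred on their medians, the series table, eBayes with trend and robust, averaged features per symbol, a block for the replicate number, each array's interquartile range as a covariate, each array left out, and for classes the members above the filter and the median over members. Replicate numbers come from the labels, where nothing says that samples with the same number are related. The labels call the samples biological replicates.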

Additional observations from a re-analysis of the deposited data

Results flagged for a closer look

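In wildtype replicate 2 the histone chaperone gene Nap1l1 read 9.80, far below the other 3 wildtype arrays, the nearest of which was at 10.08. The gap was 0.847 of the range of the group, above Dixon's 95% critical value for 4 samples. This was 1 of 104 groups examined, and chance alone marks about 1 in 20.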

How the results depend on the processing

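The count of histone genes past the adjusted threshold was 0 in all 17 alternatives, and 0 as well for each related list. The count at an unadjusted p of 0.05 was 0 as reported, 3 without a level filter, 1 with array interquartile range as a covariate, 0 to 3 with each array left out, and 0 with the stricter filter, quantile normalization, centred arrays, the series table, trend and robust, and the mean of all features. With the replicate block 3 histone genes had an unadjusted p under 0.05, with unchanged differences: Hist2h2ac (0.37), Hist1h3h (-0.31) and Hist1h3d (-0.61). Same-numbered arrays correlated in their deviations by 0.140, 0.0238, 0.126 and -0.0017, so the numbers were not taken to pair the samples. Class means moved by more than their spread with the members above the filter, for H1 to -0.10 and for H3 to -0.32, and with the median over members, for H1 to -0.12, for H2B to 0.18 and for H3 to -0.016. The means over members above the filter hold fewer genes, and for H1 they leave out Hist1h1b, which differed by 0.90. The part of single genes in these moves was not tested. With each array left out the class means ranged from 0.103 to 0.268 for H1, -0.012 to 0.114 for H2A, 0.013 to 0.062 for H2B, -0.201 to -0.123 for H3 and -0.157 to -0.055 for H4.

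Differences near 0 changed sign. With arrays centred Hist1h1c was at 0.034 and Hist4h4 at 0.044. With the interquartile range as a covariate they were at 0.13 and 0.10, and Hist2h3c1 at 0.22. With quantile normalization Hist1h2bc was at -0.048. Leaving out single arrays gave ranges of -0.126 to 0.086 for Hist1h1c, -0.205 to 0.030 for Hist2h3c1, -0.127 to 0.013 for Hist1h4k, -0.119 to 0.082 for Hist4h4 and -0.210 to 0.216 for Hist1h2bc. Counts of higher genes at an unadjusted p of 0.05 ranged over the alternatives from 7 to 31 for S phase, 2 to 9 for chaperones, 2 to 7 for 3′ processing and 1 to 2 for replication-independent histones, and the S phase median from 0.220 to 0.354. The number of arrays and signals near background limit what the 24 histone genes below the filter can show.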
